A study of Mus musculus with 6 samples.

Results

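The cytosolic heat shock chaperones were measured in brain RNA of 6 mice through 8 genes: Hspa1a, Hspa1b, Hspa8, Hsph1, Dnajb1, Dnaja1, Hsp90aa1 and Hspb1. The members were all probe sets annotated to exactly 1 symbol that is one of these genes, with no filter on dim signals. This gave 22 probe sets of the 45037 that were not Affymetrix controls: 1 for Hspa1a, 2 each for Hspb1, Hsph1 and Dnajb1, 3 each for Hspa1b and Dnaja1, 4 for Hspa8 and 5 for Hsp90aa1. No member was lost to shared annotation, since 0 probe sets with several symbols named one of the 8 genes.

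The mice were females of 123 days from a single litter. Of these, 4 lacked both copies of the melanotransferrin gene (MTf -/-, strain given as C57BL/6 - Lucy) and 2 carried it (MTf +/+, strain C57BL/6). Total RNA from brain tissue of each mouse went to 1 Affymetrix mouse expression array, and the value for a probe set is a signal intensity on a linear scale. No heating, stress or drug is given in the labels, and the extent of the dissection is not stated.

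Cells make these proteins to keep other proteins folded. The HSP70 proteins bind unfolded stretches, J proteins of the HSP40 family bring them clients and start their ATP cycle, and HSP110 proteins reload them with ATP. HSP90 finishes the folding of kinases and hormone receptors, and small heat shock proteins hold aggregating proteins without ATP. Some of these genes, such as Hspa1a, Hspa1b and Hspb1, are strongly induced by heat shock factor 1 under stress, whereas Hspa8 is made at all times in most cells, neurons included.

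Arrays are named knockout 1 to 4 and wild type 1 and 2 in the order of deposit. The melanotransferrin gene Meltf, on its single probe set, read 80.7, 132.9, 155.9 and 84.1 in the knockouts, against 146.5 and 228.7 in the wild types. The groups overlapped at these dim signals, and whether the probes lie in the deleted part is not given, so this does not check the labels. Wild type 1 stood apart. It had 24.5% of probe sets below 49.6, the 20th percentile of all signals, where the other 5 had 17.6% to 20.2%, and its mean correlation with the rest was 0.956 where theirs were 0.961 to 0.970. Knockout 2 had almost no cerebellar signal, with Gabra6, a GABA receptor subunit of cerebellar granule cells, at 87.6 against 6937.6 to 15710.5 elsewhere. The neuronal marker Snap25 read 45275 or more on all arrays, and the myelin gene Mbp 56230 or more. The astrocyte genes Gfap and Aqp4 were lower on every knockout array than on either wild-type array, with log2 fold changes of -0.63 and -0.64 (limma adjusted p = 0.738 each), while the other 5 astrocyte markers overlapped between the groups. On knockout 3 the pituitary hormone genes Gh and Prl read 5930.1 and 3690, and no other array passed 381.4 for either. The part of these differences in the chaperone values was not tested. In bulk brain tissue, fewer cells of a type and less RNA per cell cannot be told apart.

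No test called a difference between knockout and wild type for any of the 22 probe sets, given the spread between mice. In the fit across all probe sets (limma, Benjamini-Hochberg), 0 of the 22 passed an adjusted p of 0.05, and their adjusted p-values ran from 0.744 to 0.998. On the whole array 0 of 45037 passed, or 0%. At an unadjusted p under 0.05, 0 of the 22 were counted, against 6.76% of the whole array (4.92% higher and 1.84% lower in the knockout). Signals of the 2 groups did not overlap for 2 of the 22 (9.09%), both higher in the knockout, against 16.1% of all probe sets in either direction, 11.3% higher and 4.81% lower. Both shares among the members lay below those of the array.

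The differences were small. Log2 fold changes, taken as knockout minus wild type after adding 49.6 to each signal, ran from -0.13 to 0.62. Their 95% intervals lay inside a 2-fold change in both directions for 19 probe sets and inside 1.5-fold for 12. The other 3 intervals, all of Hsp90aa1, reached past 2-fold higher. The difference was smaller than its own standard error for 16 of the 22. With the deposited scaling 14 of the 22 were higher and 8 lower, but after median centring 5 were higher. Across the array 60.3% were higher with the deposited scaling. The median log2 fold change was 0.14 for the members and 0.078 for all probe sets, and median centring moved these to -0.077 and -0.14. Centring shifts all probe sets of an array alike, so the members' distance of 0.060 from the array median cannot change with it. That distance was 0.081 after quantile normalisation, 0.029 without knockout 2 and 0.036 without wild type 1. After a filter on the lowest 40% of mean levels, which kept 20 members, it was 0.092.

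**Figure D1:**
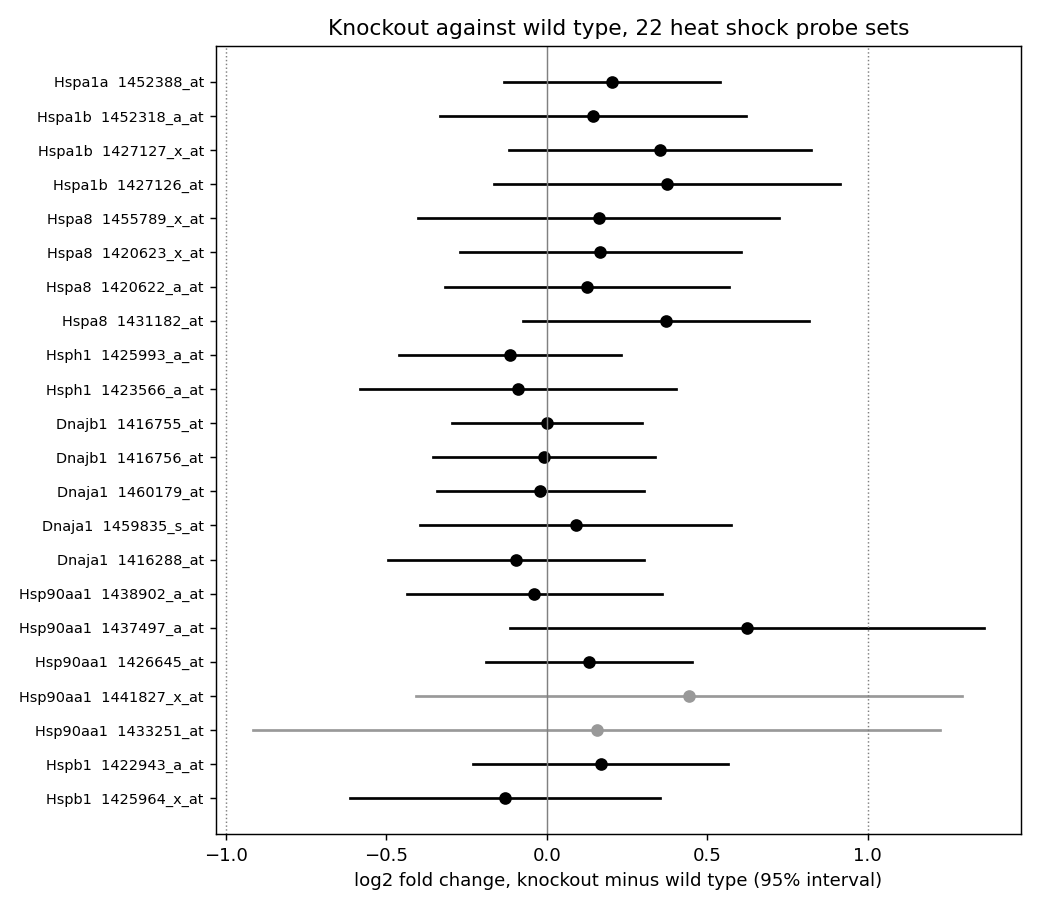
Log2 fold change of each heat shock probe set, knockout minus wild type (point), with its 95% interval from limma (line), for 4 knockout and 2 wild-type mice. Dotted lines mark a 2-fold change, grey marks the 2 dim probe sets of Hsp90aa1, and all 22 intervals cross 0.

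Among the stress-inducible HSP70 genes, Hspa1a and Hspa1b were read at moderate signals in every mouse. They are neighbours on chromosome 17 of GRCm38.p6, Hspa1b at 34956429 to 34959238 and Hspa1a at 34969359 to 34972156, and encode nearly the same protein. All positions here are RefSeq's on that build, since the deposited table names none. Signals of one gene may include those of the other. Their promoters are shown to set the 2 copies side by side, and bases before a start cannot tell whether signals are shared. RefSeq windows of 250 bases before each start differ at 3 of 250 bases, an identity of 98.8%. With positions counted from 1 at the first printed base and the Hspa1b base first, these are T44C, C47T and G249T. Capitals mark GAANNTTC, the pairing of 2 inverted GAA units that heat shock factors bind.
Hspa1a, chr17:34972157-34972406, minus strand: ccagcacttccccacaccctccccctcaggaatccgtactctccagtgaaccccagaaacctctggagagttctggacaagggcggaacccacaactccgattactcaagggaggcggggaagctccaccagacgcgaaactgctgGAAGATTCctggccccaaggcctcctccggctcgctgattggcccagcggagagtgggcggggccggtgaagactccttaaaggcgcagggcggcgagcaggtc
Hspa1b, chr17:34959239-34959488, minus strand: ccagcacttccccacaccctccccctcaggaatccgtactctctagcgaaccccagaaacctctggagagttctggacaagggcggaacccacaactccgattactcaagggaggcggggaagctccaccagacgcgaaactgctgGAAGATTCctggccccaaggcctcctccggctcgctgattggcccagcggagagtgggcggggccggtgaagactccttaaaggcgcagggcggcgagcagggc

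Both windows hold GAAGATTC at position 147, starting 104 bases before the annotated start. The letters of the printed site are the same in both genes. The probe sequences were not used here, so how much of each signal comes from which copy was not measured. In Affymetrix naming, a probe set ending in x_at holds probes that may match other transcripts, and the Hspa1b probe set 1427127_x_at is one of these.

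Hspa1a, on 1452388_at, read 1249.7, 1164, 1054 and 1048 in knockouts 1 to 4, against 1003 and 942 in wild types 1 and 2. All knockout values lay above both wild-type values, but the gap between knockout 4 and wild type 1 was smaller than the spread among the knockouts. Knockouts averaged 1129 ± 96.6 (SD, n = 4) and wild types 972.6 ± 43.4 (SD, n = 2). On the log2 scale the difference was 0.20 ± 0.15 (standard error), with a 95% interval from -0.13 to 0.54 (limma adjusted p = 0.797, exact permutation p = 0.133, 2-sided). Leaving out wild type 1 gave 0.25, leaving out wild type 2 gave 0.16, and the value was -0.012 after median centring.

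Hspa1b was highest in knockout 2 on each of its 3 probe sets. On the brightest, 1452318_a_at, it read 1698.5, 2446, 1607 and 1374 in knockouts 1 to 4, against 1766 and 1398 in wild types 1 and 2. On 1427127_x_at the knockouts read 986.7, 1006, 717 and 694.7, against 712.1 and 586.5 in wild type. On 1427126_at they read 489.8, 682.2, 614.6 and 447.9, against 360 and 476.1. The groups overlapped on all 3. Log2 fold changes were 0.14, 0.35 and 0.37 in that order, with standard errors of 0.21, 0.21 and 0.24 and limma adjusted p-values of 0.898, 0.759 and 0.776. Without knockout 2, the mouse with almost no cerebellar signal, they were -0.016, 0.27 and 0.28. The part of the missing cerebellar signal in the Hspa1b values was not tested.

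Hspa8, the constitutive HSP70 also called Hsc70, lies on chromosome 9 at 40801276 to 40805202. Its 4 probe sets did not order the mice alike. On the brightest, 1455789_x_at, it read 62610.5, 74142, 82882 and 93366 in knockouts 1 to 4, against 58293 and 82231 in wild types 1 and 2. Here knockout 4 was the highest and wild type 1 the lowest, and wild type 2 lay among the knockouts. On 1420623_x_at the knockouts read 40575.5, 45653, 48564 and 51343, against 36621 and 46566 in wild type, which is the same order of mice. On 1420622_a_at the knockouts read 30828, 22915, 21791 and 20636.5, against 19392 and 24428 in wild type. The order within the knockouts was the reverse there, with knockout 1 the highest and knockout 4 the lowest of the 4. Log2 fold changes of these 3 were 0.16, 0.17 and 0.13, with standard errors of 0.25, 0.20 and 0.20 (limma adjusted p = 0.904, 0.873 and 0.906). Without wild type 1 they were -0.087, -0.0064 and -0.041.

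The fourth Hspa8 probe set, 1431182_at, read 664.9, 886.4, 668 and 659.2 in knockouts 1 to 4, against 590.3 and 494.9 in wild types 1 and 2, so that the groups did not overlap. The difference was 0.37 ± 0.20 on the log2 scale (standard error), with a 95% interval from -0.075 to 0.82. The exact permutation p was 0.0667, the smallest that 15 splits of 4 against 2 can give, and the limma adjusted p was 0.746. Without knockout 2 the log2 fold change was 0.27. It was the single member probe set to reach that smallest p. The share of the whole array at the smallest permutation p was not counted, here or in the other settings given below.

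Hsph1 encodes the HSP110 protein that exchanges nucleotide on HSP70, and lies on chromosome 5 at 149616843 to 149636498. On 1425993_a_at it read 9873, 13393, 10880.2 and 11798 in knockouts 1 to 4, against 13284 and 11505 in wild types 1 and 2. On 1423566_a_at it read 4343, 4730.6, 3260 and 3338, against 5327 and 3182. The wild-type mice lay at both ends of the second probe set, wild type 1 the highest of all 6 and wild type 2 the lowest. Log2 fold changes were -0.11 and -0.090 with standard errors of 0.16 and 0.22 (limma adjusted p = 0.889 and 0.945). On 1423566_a_at leaving out wild type 1 gave 0.28 and leaving out wild type 2 gave -0.46, so its direction depended on which wild-type mouse was used.

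Among the J proteins, Dnajb1 had the differences nearest to 0 of all members. Dnajb1, the heat-inducible HSP40 on chromosome 8 at 83608175 to 83612653, read 3801, 4358, 4415 and 4690.6 in knockouts 1 to 4 on 1416755_at, against 4658 and 3983 in wild types 1 and 2. On 1416756_at it read 1172, 1212, 1127.5 and 1119, against 1330.4 and 1017.5. Both wild-type values enclosed all 4 knockout values on the second probe set. Log2 fold changes were -0.0012 and -0.0082 with standard errors of 0.13 and 0.16 and 95% intervals from -0.30 to 0.29 and from -0.35 to 0.34 (limma adjusted p = 0.998 and 0.993).

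Dnaja1, an HSP40 of the DnaJ class that carries a zinc-finger region, lies on chromosome 4 at 40722468 to 40734965. Its brightest probe set, 1460179_at, read 16742, 18584, 19881 and 19701 in knockouts 1 to 4, against 19278 and 18648 in wild types 1 and 2. Its highest signal was 1.19 times its lowest, the narrowest spread over the 6 arrays among the 22 probe sets. The other 2 were less even. On 1459835_s_at the knockouts read 20286.5, 17267, 16283 and 11370, against 13638 and 16472 in wild type. On 1416288_at they read 10408, 11496, 10135 and 7905, against 12181.5 and 9197.5. Knockout 4 was the lowest of all mice on both, while on the brightest probe set it was the second highest. Log2 fold changes were -0.021, 0.090 and -0.097 with standard errors of 0.14, 0.22 and 0.18 (limma adjusted p = 0.980, 0.943 and 0.923).

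**Figure D2:**
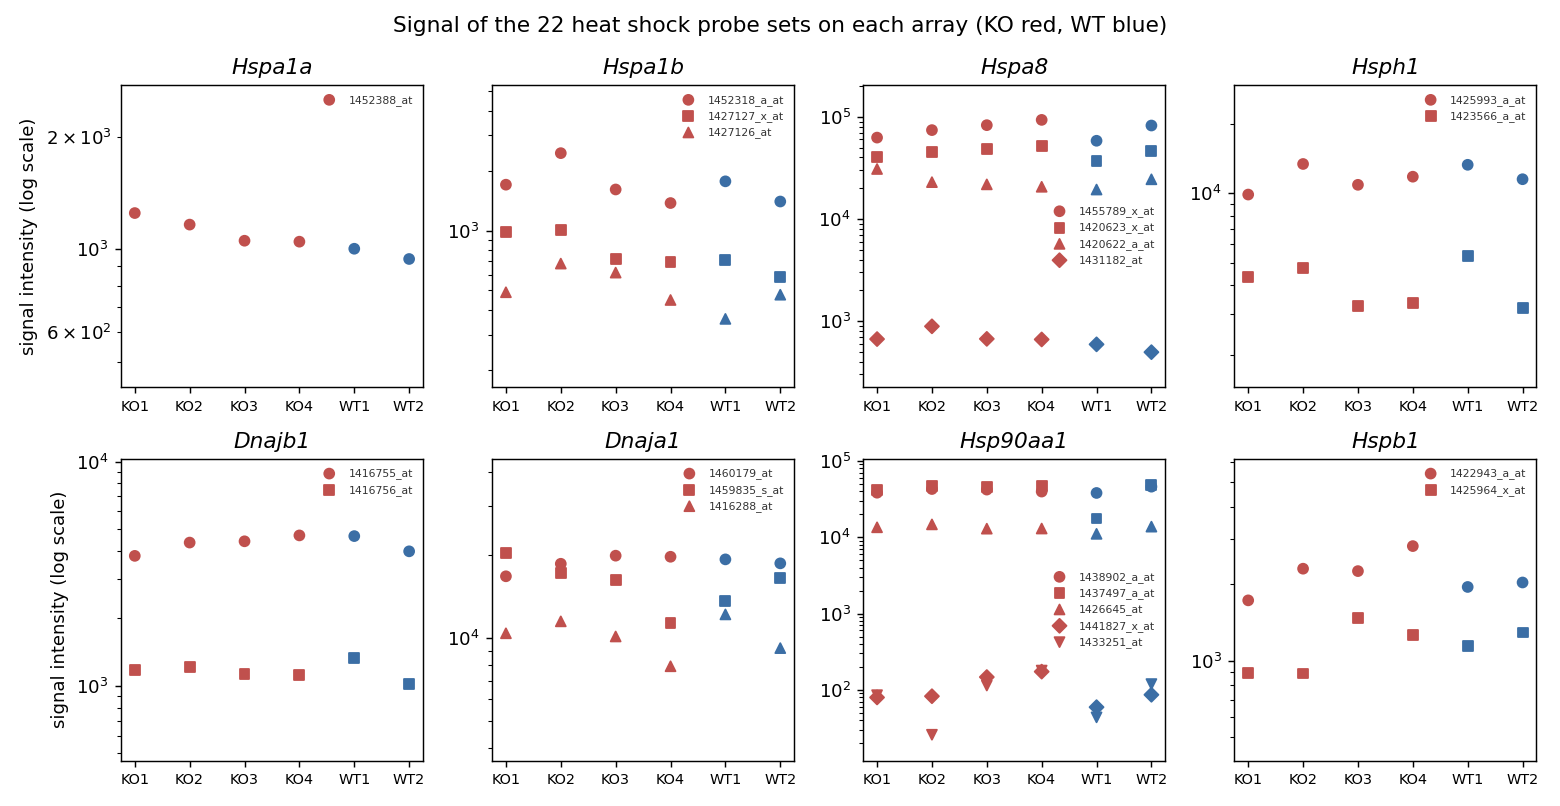
Signal intensity (log axis) of every heat shock probe set on each array, 1 panel per gene, with knockout arrays in red on the left and wild-type arrays in blue on the right. Each marker shape is 1 probe set, and each panel has its own scale. In the Hsp90aa1 panel 1437497_a_at lies beside 1438902_a_at on 5 arrays and drops to 17603 on wild type 1.

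Hsp90aa1, the stress-inducible HSP90 on chromosome 12 at 110691036 to 110696395, gave the widest difference, which rested on 1 array. On 1437497_a_at it read 41314, 46709, 45655 and 47109.7 in knockouts 1 to 4, against 17603 and 48664 in wild types 1 and 2. Wild type 2 was the highest of all mice and wild type 1 by far the lowest. Knockouts averaged 45197 ± 2660.3 (SD, n = 4) and wild types 33134 ± 21963 (SD, n = 2), a log2 difference of 0.62 ± 0.33 (standard error; limma adjusted p = 0.744, exact permutation p = 0.333). Without wild type 1 the log2 fold change was -0.11. With wild type 1 as the only wild-type mouse it was 1.36 at a limma adjusted p of 0.033, and 171 probe sets of the array then passed.

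The other bright Hsp90aa1 probe sets did not show this drop. On 1438902_a_at the knockouts read 38341, 42854, 42110.3 and 39678.5, against 38048 and 46011 in wild type. On 1426645_at they read 13492, 14733, 12950.3 and 13001.5, against 11074 and 13766. Wild type 1 was the lowest on both, by a much smaller margin. The log2 difference between 1437497_a_at and 1438902_a_at on the same array was -1.11 on wild type 1 and lay between 0.081 and 0.25 on the other 5. Log2 fold changes of the 2 further probe sets were -0.040 and 0.13 with standard errors of 0.18 and 0.14 (limma adjusted p = 0.973 and 0.861). Of the 27022 probe sets in the upper 60% of mean level, 353 (1.31%) were lower on wild type 1 than on wild type 2 by at least as much as 1437497_a_at, whose log2 difference was -1.46. The Gapdh 3′ to 5′ signal ratio, a measure of RNA integrity, was 1.05 on wild type 1 and 0.826 to 0.909 on the other 5 arrays, and its part in the Hsp90aa1 value was not tested.

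The remaining 2 Hsp90aa1 probe sets were dim, and they were the members that a filter on the lowest 40% of mean levels would remove. On 1441827_x_at the knockouts read 79.5, 82.5, 147.1 and 173.3, against 59.3 and 86.2 in wild type. On 1433251_at they read 85.2, 25.8, 113.9 and 179, against 43.6 and 119.1. Values this close to the offset of 49.6 spread widely, with 95% intervals from -0.41 to 1.29 and from -0.92 to 1.23 on the log2 scale. Neither interval leaves out a 2-fold higher level in the knockout.

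Hspb1, the small heat shock protein also known as Hsp25, lies on chromosome 5 at 135887919 to 135889563. Its promoter is shown because it holds the motif more than once, GAAGTTTC at position 134 and GAACCTTC at position 154.
Hspb1, chr5:135887669-135887918, plus strand: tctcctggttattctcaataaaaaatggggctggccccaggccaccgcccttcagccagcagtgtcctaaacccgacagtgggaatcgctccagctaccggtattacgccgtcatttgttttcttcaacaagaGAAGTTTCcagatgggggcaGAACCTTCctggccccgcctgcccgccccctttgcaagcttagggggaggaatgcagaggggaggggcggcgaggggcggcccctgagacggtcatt

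On 1422943_a_at Hspb1 read 1722, 2291, 2242 and 2809 in knockouts 1 to 4, against 1943 and 2023 in wild types 1 and 2. The wild-type mice lay inside the knockout range, whose ends were knockout 1 and knockout 4. On 1425964_x_at the knockouts read 895.7, 890.5, 1469 and 1259.8, against 1139.7 and 1288 in wild type. Here knockouts 1 and 2 lay below both wild-type values. Log2 fold changes were 0.17 and -0.13 with standard errors of 0.18 and 0.22 (limma adjusted p = 0.857 and 0.913), so the 2 probe sets differed in sign and neither by more than its error.

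**Figure D3:**
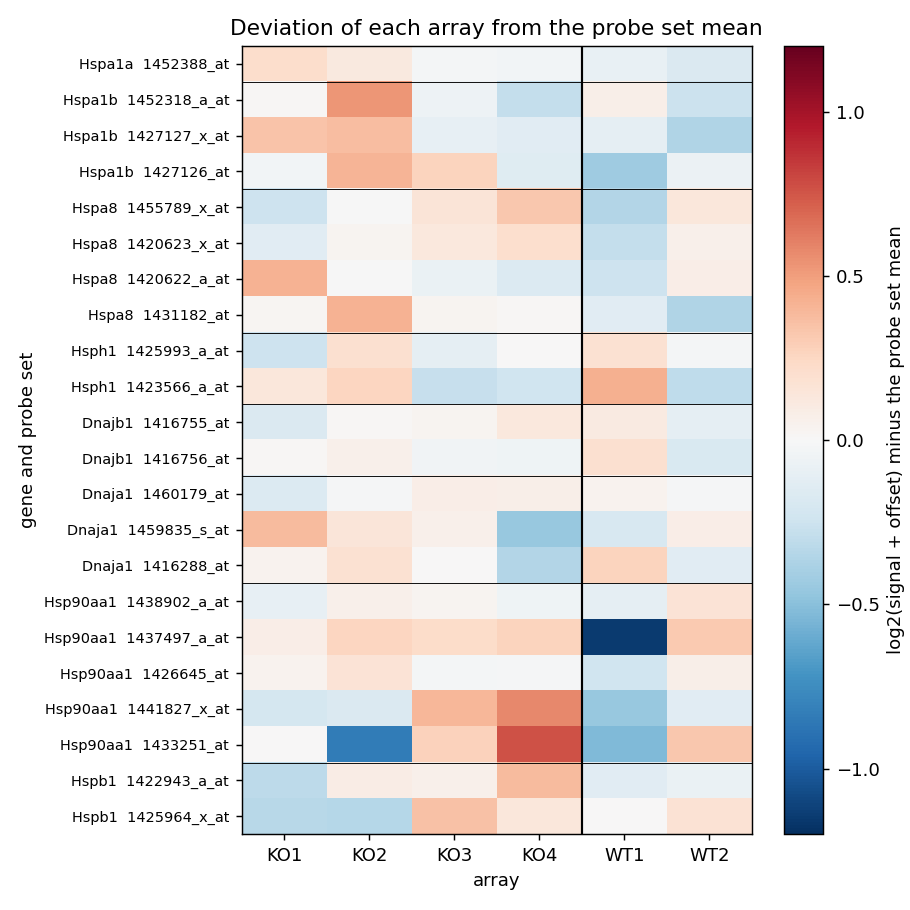
Deviation of each array from the mean of the probe set over the 6 arrays, as log2(signal + 49.6), with knockout arrays left of the vertical line and wild-type arrays right of it. Red is above and blue below the mean, and the strongest blue cell among bright probe sets is Hsp90aa1 on 1437497_a_at in wild type 1, at -1.15.

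Promoter letters were searched in the RefSeq windows of 300 bases (250 before and 50 after a start) of GRCm38.p6. The motifs were GAANNTTC and TTCNNGAA, each of which reads the same on both strands. Of 32851 windows, 7.86% held the first, 8.52% the second and 15.1% either. The table held 6 of the 8 genes, and 5 of these 6 had either motif in a window; of the 10 windows of the 6 genes, 6 held a match. Hspa8 and Hsp90aa1 were not among the 6, and Dnajb1 was the gene with no match. Each of the 2 overlapping Hsph1 windows held 1 GAANNTTC and 2 TTCNNGAA. In Dnaja1 and Hsph1 1 match each is shown in 30 bases. That of Dnaja1 starts 124 bases before the first of its starts in the table, and that of Hsph1 33 bases before the more upstream of its 2 starts, both of which lie inside the gene span given above. They are printed to set their letters beside those of Hspa1a, Hspa1b and Hspb1.
Dnaja1, chr4:40722333-40722362, plus strand: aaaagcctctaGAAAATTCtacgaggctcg
Hsph1, chr5:149636351-149636380, minus strand: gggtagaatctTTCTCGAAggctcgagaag

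These matches describe the letters in the windows and say nothing of whether heat shock factor was bound in these brains. The genes with a match, Hspa1a, Hspa1b, Hspb1, Hsph1 and Dnaja1, differed in the mouse with the highest signal: the highest array of the brightest probe set was knockout 1 for Hspa1a, knockout 2 for Hspa1b and Hsph1, knockout 3 for Dnaja1 and knockout 4 for Hspb1. Over the 22 probe sets, knockouts 2 and 4 held the highest signal 6 times each and wild type 1 held the lowest 8 times.

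Taking the brightest probe set of each gene, 4 genes were higher and 4 lower in the knockout with the deposited scaling, and 0 higher and 8 lower after median centring, which moved the share of lower genes on the whole array to 73.5% from 46.4%. The median log2 fold change of the 8 was 0.071 with the deposited scaling, where the same median over 18193 genes was 0.024. Brightest means the highest mean log2 value over the arrays. For Hsp90aa1 that was 1438902_a_at at -0.040, although 1437497_a_at was brighter on every array but wild type 1. With 1437497_a_at, at 0.62, in its place this gene would count as higher, and the median was not computed that way. The mean deviation of the 8 probe sets was -0.13, 0.12, 0.022 and 0.068 in knockouts 1 to 4, against -0.038 and -0.046 in wild types 1 and 2. Both wild-type values lay inside the knockout range. Over all 22 probe sets the mean deviation was -0.012, 0.087, 0.064 and 0.043 in knockouts 1 to 4, against -0.15 and -0.037 in the wild types, so that both wild types lay below every knockout. The same mean over all probe sets of the array was 0.053, -0.014, 0.018 and 0.090 in the knockouts, against -0.14 and -0.0023 in the wild types. Which summary is used therefore decides whether the groups overlap. The array-wide level was not taken off the member means, and on wild type 1 it lay close to the mean of the 22. Of these 22, 5 were of Hsp90aa1, and its 1437497_a_at deviated by -1.15 on wild type 1.

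Patterns most alike over the 6 arrays were found by Pearson correlation of log2 values, using only the brightest probe set of each gene. It was set against 23042 probe sets of other genes in the upper 60% of mean level. With 6 arrays many probe sets correlate highly, and the values are given as a description. For Hspa8 on 1455789_x_at the 3 most alike were the ribosomal protein genes Rps15 (r = 0.996), Rps18 (r = 0.996) and Rpl35 (r = 0.995). With this probe set 544 probe sets, or 2.36%, had r above 0.9, and the other Hspa8 probe sets were not correlated. For the other 7 genes that share ran from 0.347% to 0.786%. Hspa1a was most like Elavl3 (r = 0.995), Hspa1b most like Ttl (r = 0.997), Hsph1 most like Tomm34 (r = 0.996) and Dnaja1 most like Sdc3 (r = 0.992). Dnajb1 was most like Parp3 (r = 0.990), Hspb1 most like Uggt1 (r = 0.987) and Hsp90aa1 most like Iah1 (r = 0.984).

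The wider chaperone system was set beside the members through 9 lists with 61 genes, of which 56 had a probe set with 1 symbol. Of these 56, limma called 0, and 4 (7.14%) reached an unadjusted p under 0.05 beside 6.49% of all 18193 genes. This count depended on the setting. It was 18 (32.1%, all genes 12.7%) without wild type 2, 3 (5.36%, all genes 3.16%) without wild type 1, 11 (19.6%, all genes 11.3%) after median centring and 1 (1.79%, all genes 5.50%) without the intensity trend. With the deposited scaling 38 of the 56 (67.9%) were lower in the knockout and 18 higher, against 46.4% lower among all genes. The median log2 fold change of the 56 was -0.10. After a dim filter of 40%, 71.7% of the 53 list genes left were lower, against 51.4% of 13300 genes. Median centring without that filter made the shares lower 87.5% of the 56 and 73.5% of all genes. Without wild type 1, 35 of the 56 were lower and their median was -0.050. Of the 8 member genes 4 were lower as deposited and all 8 after median centring, and the difference between the lists was not tested.

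The lists leaned in different directions with the deposited scaling. Of the other HSP70 and HSP110 genes 5 of 8 were higher in the knockout (median log2 fold change 0.067). In the list of heat shock factors 3 of 4 were higher (median 0.24), and 1 of these was Hsbp1, a protein that binds them. After a dim filter of 40% these counts were 3 of 6 (median -0.037) and 2 of 3 (median 0.14). The other small heat shock proteins were split 3 and 3, and 5 of 8 HSP70 exchange factors and partners were lower (median -0.014), as were 3 of 4 mitochondrial chaperones (median -0.099). Quantile normalisation turned the medians of the HSP70 genes, the exchange factors and the small heat shock proteins to -0.015, 0.015 and -0.065, and median centring turned those of the HSP70 and small heat shock genes to -0.15 and -0.21. Of 8 measured HSP90 cochaperones, 6 were lower in the knockout (median log2 fold change -0.20), and of 9 other J proteins 8 were lower (median -0.13). All 8 subunits of the TRiC chaperonin, the ring that folds actin and tubulin, were lower (median -0.11). Leaving out wild type 1 left 6 of 8 cochaperones lower (median -0.083), 5 of 9 J proteins (median -0.036) and 6 of 8 TRiC subunits (median -0.042). The mean level of each of these 3 lists was highest on wild type 1, 0.23, 0.19 and 0.18 on the log2 scale, while the other 5 arrays lay at 0.03 or below. The part of that array in the lower counts was not tested beyond leaving it out. None of these genes passed in limma, where the smallest adjusted p over the 56 was 0.738.

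The genes with an unadjusted p under 0.05 were Hspa12a, Dnajb5, Hspa4l and Cirbp, each with a limma adjusted p of 0.738. Hspa12a, a distant HSP70 relative, averaged 3357 ± 414.7 (SD, n = 4) in knockouts against 2353 ± 106.9 (SD, n = 2) in wild types, 0.50 on the log2 scale. Its other 3 probe sets had 0.61, 0.98 and 0.0038, the last 2 at dim signals. Dnajb5, a J protein, had 0.51. Hspa4l, an HSP110 relative of Hsph1, had -0.39 on its brightest probe set, where knockouts averaged 3333 ± 217.1 (SD, n = 4) against 4386.5 ± 38.0 (SD, n = 2) in wild types. On another of its 5 probe sets, 1439093_at, it had 0.45, so that 2 probe sets of this gene separated the groups in opposite directions. Cirbp, an RNA-binding protein induced by cold, read 1475, 1025, 1225 and 1269 in knockouts 1 to 4, against 2260 and 1381 in wild types 1 and 2. Its log2 fold change of -0.50 was -0.15 without wild type 1. On the brightest probe sets, median centring gave 0.28 for Hspa12a, 0.30 for Dnajb5, -0.61 for Hspa4l and -0.71 for Cirbp.

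None of the further chaperones was called. The factor Hsf2 differed by 0.35 ± 0.38 (log2, standard error) and Hsf5 by 0.48 ± 0.35, at mean signals of 307.1 and 161 in knockouts against 224.9 and 104.2 in wild types. The HSP70 partners Bag3 and Bag1 had -0.21 and -0.29, the lens and glial chaperone Cryab 0.022 and the small heat shock protein Hspb8 -0.37. Further probe sets had -0.13 and, at dim signals, 0.41 for Cryab, and -0.51 and 0.21 for Hspb8. In mitochondria, Hspd1, Hspe1 and Trap1 had -0.039, 0.15 and -0.19. The HSP90 cochaperone Cacybp had -0.26 and the TRiC subunit Cct5 -0.31. Leaving out wild type 1 gave 0.035 for Hsf2, 0.18 for Hsf5, -0.15 for Bag1, -0.23 for Hspb8, -0.16 for Cacybp and -0.074 for Cct5. Limma adjusted p-values of the brightest probe sets of these 11 genes ran from 0.741 to 0.987. Hsf1, Hsp90ab1 and Rbm3 had no probe set with a single symbol and were not analysed here.

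**Figure D4:**
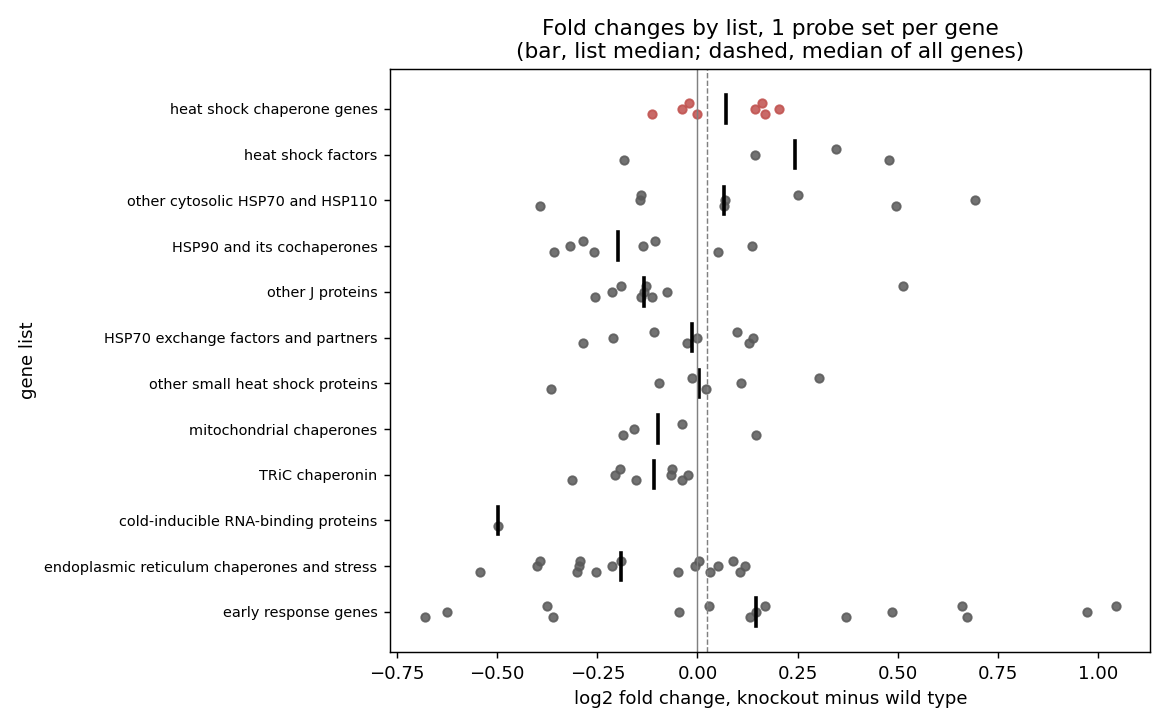
Log2 fold change, knockout minus wild type, of each gene in 12 lists, a gene being drawn once through its brightest probe set. Points are genes, bars are list medians, and the dashed line is the median over all genes at 0.024; the 8 heat shock genes, in red, span -0.11 to 0.20.

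Chaperones of the endoplasmic reticulum and the early response genes were the lists nearest in kind. Of 17 endoplasmic reticulum genes, 11 were lower with a median of -0.19, and limma called 0. An unadjusted limma p under 0.05 was reached by 3 (17.6%), beside 6.49% of all genes. They were Herpud1, of protein degradation at the reticulum, at -0.54, the lectin chaperone Canx at -0.40 and the J protein Dnajb9 at -0.30. Leaving out wild type 1 gave -0.33, -0.19 and -0.16 for these and a list median of -0.10. With all arrays, the further probe set of Herpud1 had -0.19 and those of Canx had 0.084 and -0.42. Hspa5, the HSP70 of that compartment, had -0.29 ± 0.17 (standard error) at its brightest, though a further probe set, 1447824_x_at, had 0.30, and leaving out wild type 1 gave -0.14 for the brightest. Of 15 early response genes, 10 were higher and 5 lower with a median of 0.15, and 0 passed. Leaving out wild type 1 made this 8 higher and 7 lower with a median of 0.0076. At an unadjusted limma p under 0.05 there were 7 (46.7%, all genes 6.49%). These were Egr1 (0.48), Egr2 (1.04), Nr4a3 (0.97), Per1 (0.67), Dusp1 (-0.36), Ier2 (-0.63) and Btg2 (-0.68). Quantile normalisation made that count 8 (53.3%, all genes 5.78%) and median centring 5 (33.3%, all genes 11.3%). For the endoplasmic reticulum list these settings gave 3 (17.6%) and 4 (23.5%). Without the intensity trend the early response count was 5 (33.3%) and the reticulum count 1 (5.88%), beside 5.5% of all genes. Whether the lists differ from the heat shock genes was not tested.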

How the data were processed

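Each of the 6 brains gave 1 array. The authors' deposited table holds a linear signal intensity per probe set, made with GCOS 1.3 per the submitters' processing notes. The sources used here do not give how probes were summarised, and the mean over the middle 96% of signals was 999.57 to 999.91 on all arrays. Of 45101 probe sets, 64 controls were left out, 34945 had 1 symbol in the platform annotation, 932 several and 9160 none. Signals plus 49.6, the 20th percentile of the table, were taken to log2 and fitted without covariates by limma 3.58.1 (R 4.3.3; lmFit, eBayes with an intensity trend, 4 residual degrees of freedom, prior 5.91), which was tested on simulated data. P-values are 2-sided and adjusted by Benjamini-Hochberg over 45037 probe sets. Exact permutation tests used the 15 splits of 4 against 2, with a smallest p of 0.0667. P-values measure the spread between mice and arrays together, and the number of arrays limits the precision.

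All member probe sets are named. Of other lists, genes with an unadjusted p under 0.05 are named, or the one with the smallest p, plus set genes (Hsf1, Hsf2, Hsp90ab1, Hspa5, Bag3, Cryab, Hspd1, Hspe1, Cirbp, Rbm3). Members and lists were chosen with earlier results of these data known. Alternatives were quantile normalisation, median centring, offsets 0.25 and 4 times as large, a dim filter of 40%, no trend, array weights, each array left out and, added after seeing the data, the mean of the brighter probe sets per gene. Plots were drawn in Python 3.11.15.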

Additional observations from a re-analysis of the deposited data

Results flagged for a closer look

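Of 48 probe sets checked, 22 of them heat shock members, 1 held a knockout mouse far from the other 3, where chance marks about 1 in 20 such groups. Hspa8 on 1431182_at read 886.4 in knockout 2, against 659.2 to 668 in the other knockouts. Without that mouse its log2 fold change was 0.27, against 0.37 with it.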

How the results depend on the processing

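No heat shock probe set passed in limma under any alternative other than leaving out wild type 2, when 1 did (Hsp90aa1 1437497_a_at), and 6 of the 22 kept their direction throughout. Leaving out 1 mouse gave 0 to 1 member calls, 0 to 171 calls on the array (171 without wild type 2), 1 to 6 members at the smallest permutation p (0.1 or 0.2 then), and a member median of 0.054 to 0.21. Quantile normalisation gave 0 members at the smallest permutation p, a median of 0.074 and the log2 fold changes -0.053 (Hsp90aa1 1433251_at), -0.071 (Hspa8 1455789_x_at), 0.037 (Dnajb1 1416755_at) and 0.00068 (Dnajb1 1416756_at). Median centring also gave 0, a median of -0.077, and turned Hspa1a to -0.012, Hspa1b 1452318_a_at to -0.070, Hspb1 1422943_a_at to -0.046, Hsp90aa1 1426645_at and 1433251_at to -0.083 and -0.059, Hspa8 1455789_x_at, 1420623_x_at and 1420622_a_at to -0.053, -0.047 and -0.089, Dnaja1 1459835_s_at to -0.12, Cryab to -0.19 and Hspe1 to -0.068. Of probe sets with an unadjusted p under 0.05, 72.8% were higher in the knockout as deposited, 54% when quantile normalised and 20.3% when centred. The gene mean of Hsp90aa1 was 0.24, where its brightest probe set had -0.040. Without 1 mouse, values crossing 0 ran from -0.019 to 0.31 for Hspa1b 1452318_a_at, -0.46 to 0.28 for Hsph1 1423566_a_at, -0.18 to 0.10 for Hsp90aa1 1438902_a_at, -0.11 to 1.36 for 1437497_a_at, -0.025 to 0.29 for 1426645_at and -0.27 to 0.58 for 1433251_at. For Hspa8 they ran from -0.087 to 0.41 (1455789_x_at), -0.0064 to 0.34 (1420623_x_at) and -0.041 to 0.29 (1420622_a_at), and for Dnajb1 from -0.11 to 0.11 (1416755_at) and -0.19 to 0.18 (1416756_at). For Dnaja1 they ran from -0.051 to 0.032 (1460179_at), -0.045 to 0.25 (1459835_s_at) and -0.30 to 0.10 (1416288_at), for Cryab from -0.36 to 0.41, for Hspd1 from -0.069 to 0.0013 and for Hspe1 from -0.091 to 0.38. The cause was not tested. No paired analysis was possible because the replicate numbers only name the arrays. With 2 wild-type mice, the 95% interval reached past 1.5-fold for 10 of the 22 probe sets.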
